A study of Mus musculus with 2 samples.

Results

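*Snhg12* is a noncoding gene on mouse chromosome 4 (mm9, chr4:131864593-131866939, plus strand, ENSMUSG00000086290.1, annotated as a lincRNA) that holds 4 snoRNA genes. In ESCs, 1 of them, *Snora61*, carried 96.7% of all snoRNA reads of the host. In the NPC library the reads of *Snora61* were 6.28-fold lower (95% counting interval 6.15 to 6.41), and those of its neighbours *Snora44* and *Snora16a* were 5.53-fold (4.82 to 6.37) and 3.36-fold (2.73 to 4.16) lower. The level of *Snord99* in RPM did not differ between the libraries beyond counting error. *Snhg12* exon reads outside the snoRNAs were slightly higher in NPCs, with the excess in exon 1. The interval of their ratio included 0 with each start position counted once and under other scalings of the libraries. The locus was chosen by the ESC and NPC reads at *Snora61*. The 4 snoRNAs were taken by position alone, as every GENCODE M1 gene of type snoRNA that lies within *Snhg12* on its strand. The 5 genes, host included, were drawn from 37310 annotated genes, and the 4 snoRNAs from 1552 genes of type snoRNA. The values at *Snora61* are therefore a description.

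The libraries held the non-polyadenylated (NPA) RNA of male mouse R1 ESCs, and of cells derived from them that the labels call neuronal progenitors (NPCs). The ESCs were at passage 18, on mitomycin C treated MEF feeders with serum and LIF. For the NPCs, LIF was withdrawn for 4 days of embryoid body formation, and cells on poly-L-ornithine and fibronectin were collected on day 7. There was 1 library for each cell type, so no spread between cultures is known and no test between conditions could be made. Every interval given here is a 95% interval that covers counting error only, and PCR reads without molecular identifiers are not independent molecules. The ESC library held 4271306 reads and the NPC library 4399729, so that 1 read equalled 0.234 and 0.227 reads per 1000000 reads of the library (RPM).

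In the NPC library 5 of 6 markers of pluripotent cells were more than 2-fold lower, with their summed level going from 1671 to 503 RPM. All 4 endoderm markers were more than 2-fold higher, with a summed level of 18.5 RPM in ESCs and 485 RPM in NPCs. The 4 annotated neural markers of 5 listed summed to 125 and 191 RPM, and all 3 with at least 10 pooled reads had ratios above 0. *Nes* had 66 and 121 reads (log2 ratio 0.83, 0.39 to 1.29), *Vim* 469 and 706 (0.55, 0.38 to 0.72) and *Pax6* 1 and 12, while *Fabp7* had 0 and 2. The 4 fibroblast markers summed to 56.9 and 50.5 RPM but moved in both directions, with *Thy1* (79 and 12 reads) and *Pdgfrb* (93 and 21) more than 2-fold lower in NPCs and *Col1a2* (51 and 165) more than 2-fold higher. The library labelled NPC thus had higher levels of endoderm markers and of the neural markers *Nes* and *Vim* than ESCs, and the part of cell composition in the values below was not tested. Fewer cells of a type and less RNA per cell cannot be told apart in bulk libraries.

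Most snoRNAs of mammals lie in introns of a host gene. After splicing, the excised intron is debranched and trimmed by exonucleases until the proteins bound to the snoRNA stop them, so that the exons and the snoRNAs of 1 transcript part ways and can last for different times. H/ACA box snoRNAs fold into hairpins joined by a single-stranded H box, end shortly after an ACA, and guide the conversion of uridine to pseudouridine in a particle built on dyskerin. C/D box snoRNAs bring a C box and a D box together near their ends and guide ribose methylation by fibrillarin. *Snora16a*, *Snora44* and *Snora61* are H/ACA box snoRNAs, and *Snord99* is a C/D box snoRNA.

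The sequences of the 4 snoRNAs are given in 5′ to 3′ order along the host, since the box that each carries divides the members that were lower in NPCs from the one that was not. They were read from the mm9 reference genome at the GENCODE coordinates, and all are on the plus strand. *Snora16a* (ENSMUSG00000065097.1) is 136 nt long at chr4:131865380-131865515, *Snora44* (ENSMUSG00000064604.1) 129 nt at chr4:131865856-131865984, *Snora61* (ENSMUSG00000064949.1) 130 nt at chr4:131866155-131866284 and *Snord99* (ENSMUSG00000080615.1) 74 nt at chr4:131866606-131866679. Capitals mark the H box and the terminal ACA or ATA in the H/ACA members, and the C box and the D box in *Snord99*.
Snora16a: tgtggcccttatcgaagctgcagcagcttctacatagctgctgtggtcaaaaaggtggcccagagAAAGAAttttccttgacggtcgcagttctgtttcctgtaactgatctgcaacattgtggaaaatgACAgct
Snora44: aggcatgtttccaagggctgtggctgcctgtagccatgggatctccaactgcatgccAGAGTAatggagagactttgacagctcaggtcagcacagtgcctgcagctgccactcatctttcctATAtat
Snora61: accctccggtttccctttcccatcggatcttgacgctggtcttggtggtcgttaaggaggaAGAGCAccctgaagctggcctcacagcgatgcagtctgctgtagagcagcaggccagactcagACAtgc
Snord99: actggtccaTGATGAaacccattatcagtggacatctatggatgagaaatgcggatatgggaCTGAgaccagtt

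The H box was searched as ANANNA on the gene's own strand, and the match nearest the middle of the gene with a base outside the predicted stems was taken. It read AAAGAA at bases 66 to 71 of *Snora16a*, AGAGTA at bases 58 to 63 of *Snora44* and AGAGCA at bases 62 to 67 of *Snora61*, counting from 1 at the gene's first base. An ANANNA occurred somewhere in 93.0% of the 1031 annotated H/ACA genes. *Snora16a* and *Snora61* had ACA exactly 3 bases before their last base, as did 247 of the 1031 H/ACA genes, while *Snora44* had ATA there, as did 27. Each H/ACA member folded, in RNAfold, into 2 outer stems, and the marked H box began between them. The last base of the box in *Snora16a*, and the last 3 in *Snora44* and *Snora61*, were paired in the second stem. A base outside the stems was a condition of the choice, so this placing is partly built in. In *Snord99* the C box TGATGA lay at bases 10 to 15 and the D box CTGA at bases 63 to 66, and both motifs were found in 79.2% of 346 C/D genes and 2.33% of H/ACA genes. The first 7 bases of *Snord99* (actggtc) can pair with bases 67 to 73 (gaccagt).

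*Snhg12* has 6 annotated transcripts over 2347 bases. *Snora16a* was intronic in 4 of them and exonic in none, *Snora44* and *Snora61* were intronic in 4 and within an exon of 1, and *Snord99* was intronic in 3 and within an exon of 1. No other annotated gene overlapped the host. Reads were counted on the strand of the gene where they overlapped it by at least 1 base.

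In ESCs *Snora61* had 66341 reads (65837 to 66848), against 10882 in NPCs (10679 to 11088), equal to 15532 and 2473 RPM. The log2 NPC to ESC ratio of *Snora61* was -2.65 (-2.68 to -2.62). With each start position counted once it was -0.35 (-0.91 to 0.21), from 57 and 54 positions. In both libraries it held the most reads of the 139 H/ACA genes with at least 10 pooled reads, and ranked 2 of 301 named snoRNAs by ESC reads and 4 by NPC reads.

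*Snora44*, which lies 170 bases upstream of *Snora61*, had 1310 reads in ESCs (1240 to 1383) and 244 in NPCs (214 to 277), or 307 and 55.5 RPM. Its log2 ratio was -2.47 (-2.67 to -2.27). The ratios of *Snora44* and *Snora61* differed by 0.18 on the log2 scale, with an interval of -0.02 to 0.38 that includes 0.

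*Snora16a*, the most 5′ snoRNA, had 388 reads in ESCs (350 to 429) and 119 in NPCs (98.6 to 142), or 90.8 and 27.0 RPM. Its log2 ratio of -1.75 (-2.06 to -1.45) was above that of *Snora61* by 0.90 (0.61 to 1.20) and above that of *Snora44* by 0.72 (0.36 to 1.08). The 3 H/ACA members of *Snhg12* were thus all lower in NPCs, and *Snora16a* less so than the others. With each start position counted once, *Snora44* was at -0.90 (-1.74 to -0.08) and *Snora16a* at -1.27, with an interval of -2.70 to 0.04 that includes 0.

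*Snord99*, the most 3′ snoRNA and the only C/D member, had 537 reads in ESCs (493 to 584) and 570 in NPCs (524 to 619), or 126 and 130 RPM. Its log2 ratio was 0.04 (-0.13 to 0.22), and the intervals of its level in the libraries overlap. Scaled by the median ratio of all genes, *Snord99* was at -0.30 (-0.47 to -0.12). The ratio of *Snora61* was below that of *Snord99* by a difference of -2.69 (-2.87 to -2.52), that of *Snora44* by -2.51 (-2.77 to -2.25) and that of *Snora16a* by -1.79 (-2.13 to -1.45). By reads, the division by box class within this 1 host, with 1 C/D member, thus exceeded counting error for all 3 H/ACA members. With each start position counted once, *Snord99* was at 0.21 (-1.06 to 1.55), and this interval overlapped those of all 3.

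Of the 4 snoRNAs, 3 were more than 2-fold lower in NPCs, where 13.3% of 14859 genes with at least 10 pooled reads were. None was more than 2-fold higher, where 25.5% of those genes were. The contrast is the one on which the locus was chosen, so these counts carry no weight of their own. The median log2 ratio of all genes was 0.35. Relative to it *Snora16a* stood at -2.09, *Snora44* at -2.81, *Snora61* at -3.00, *Snord99* at -0.30 and the host exons at 0.12.

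**Figure D1:**
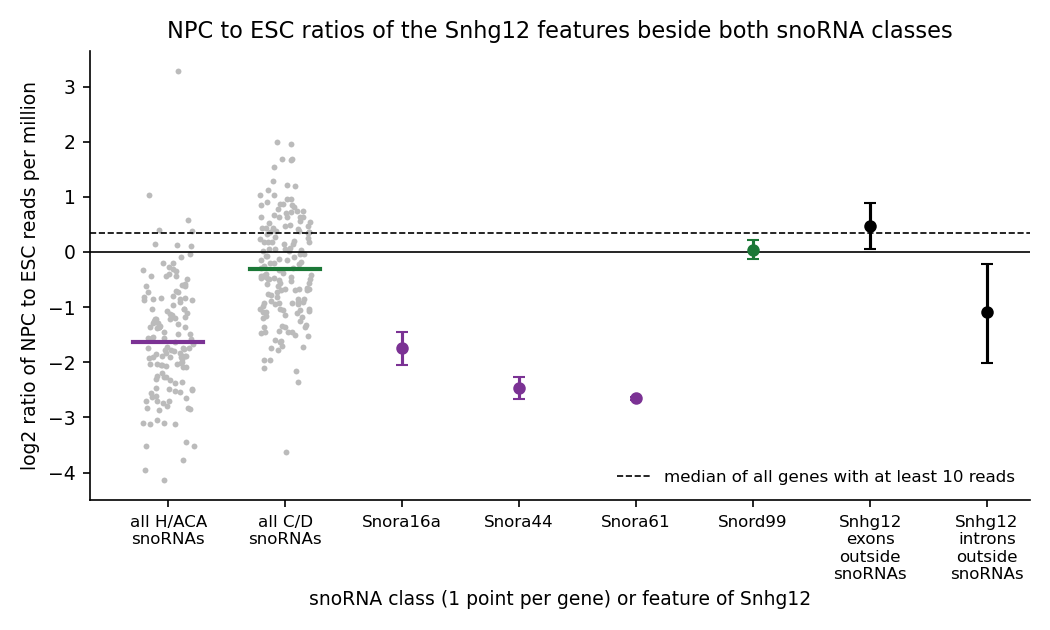
The log2 ratio of NPC to ESC RPM is plotted for each annotated H/ACA (139) and C/D (162) gene with at least 10 pooled reads (grey points, class median as a bar), and for each *Snhg12* feature with its 95% counting interval. *Snora16a*, *Snora44* and *Snora61* lie between -1.75 and -2.65, *Snord99* lies at 0.04 and the host exons at 0.47, and the dashed line is the median of all genes at 0.35.

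Against other genes of their class, the members were not at the extremes. The median log2 ratio was -1.63 over 139 H/ACA genes and -0.31 over 162 C/D genes. Among the 138 other H/ACA genes, 20 had a lower ratio than *Snora61*, 29 a lower ratio than *Snora44* and 64 a lower ratio than *Snora16a*. *Snord99* had 98 of the 161 other C/D genes below it. *Snora16a* stood within 0.12 of the median of its class.

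Per length, in RPM per kilobase of the feature (RPKM), *Snora61* was the highest feature of the host in both libraries, at 119475 RPKM in ESCs (118568 to 120388) and 19026 in NPCs (18670 to 19387). In ESCs the order then ran *Snora44* (2377), *Snord99* (1699), *Snora16a* (668), host exons (15.8) and host introns (14.0). The intervals of adjacent snoRNAs did not overlap, while those of host exons (12.6 to 19.4) and introns (9.76 to 19.5) did. In NPCs *Snord99* stood above *Snora44*, at 1751 RPKM (1610 to 1901) against 430 (378 to 487), and host exons at 21.8 (18.1 to 26.0) stood above introns at 6.60 (3.85 to 10.6). The order of *Snora44* and *Snord99* was thus exchanged between the libraries.

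**Figure D2:**
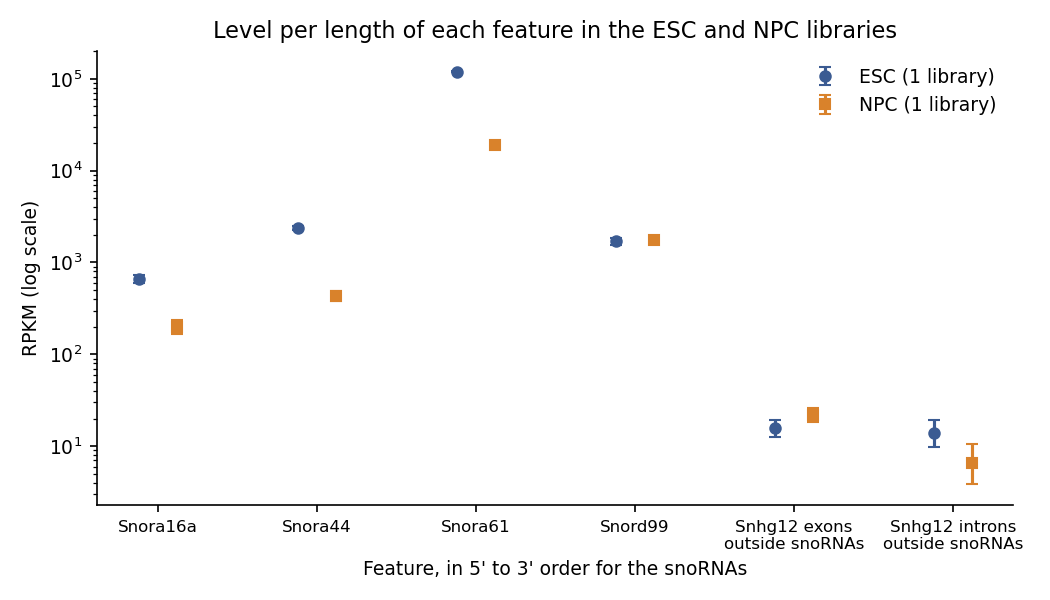
RPKM (log axis) of each *Snhg12* feature in the ESC (circles) and NPC (squares) library, with 95% counting intervals. *Snora61* is the highest in both, and *Snord99* (1699 and 1751 RPKM) is below *Snora44* in ESCs and above it in NPCs.

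Shares of reads within 1 library need no scaling between libraries. Of the snoRNA reads of the host, *Snora61* held 96.7% in ESCs (96.6 to 96.9%) and 92.1% in NPCs (91.6 to 92.6%). With each start position counted once, the order turned, at 48.7% (39.4 to 58.1%) and 55.1% (44.7 to 65.2%), with overlapping intervals. By reads, *Snord99* went from 0.783% (0.718 to 0.852%) to 4.82% (4.44 to 5.23%) and *Snora16a* from 0.566% (0.511 to 0.625%) to 1.01% (0.835 to 1.20%). The share of *Snora44* was 1.91% (1.81 to 2.02%) and 2.07% (1.82 to 2.34%), with overlapping intervals. For each *Snord99* read there were 124 *Snora61* reads in ESCs and 19.1 in NPCs, a 6.47-fold drop (5.74 to 7.29). For each *Snora44* read there were 50.6 and 44.6 *Snora61* reads, a 1.14-fold drop whose interval (0.989 to 1.30) includes no change. For each *Snora16a* read there were 171 and 91.4, a 1.87-fold drop (1.52 to 2.30). *Snora61* and *Snora44* therefore kept nearly the same proportion in both libraries, while *Snord99* took a larger share of the snoRNA reads in NPCs.

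Read depth along the host was uneven within the snoRNAs as well as between them. A full-length deposited read is 48 bases long, with 3.77% of ESC and 4.23% of NPC reads placed over shorter intervals, and begins at or near the 5′ end of an RNA fragment.

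**Figure D3:**
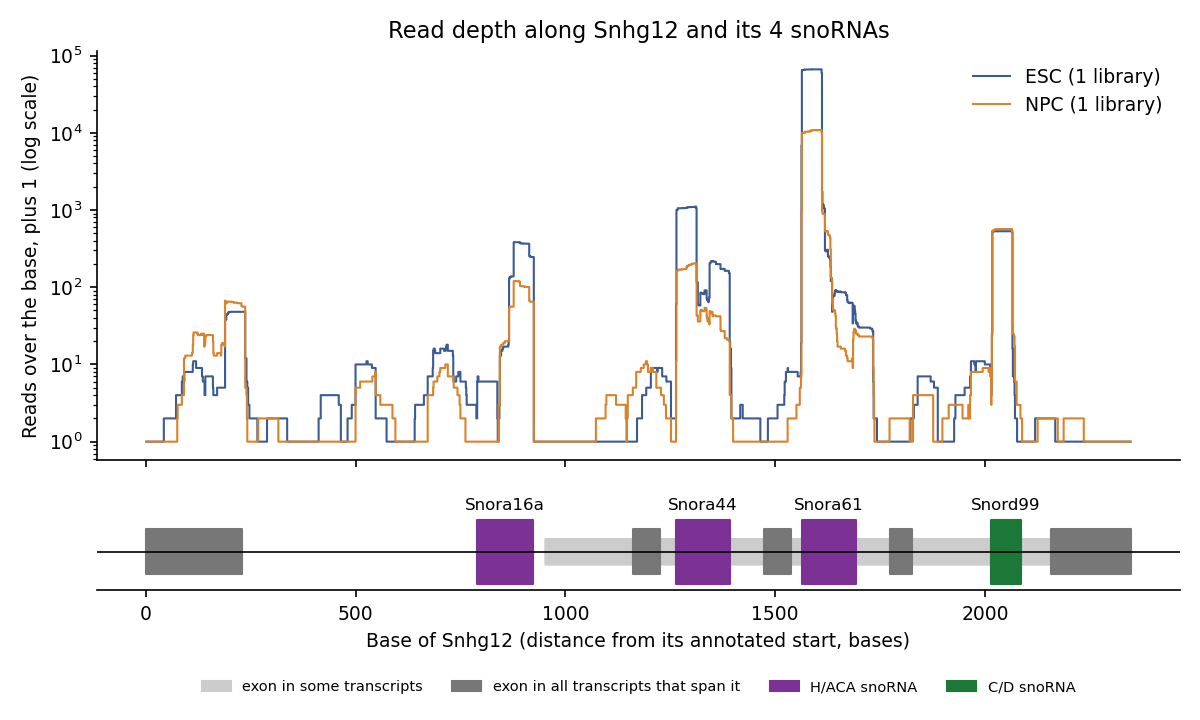
Number of reads over each base of *Snhg12*, plus 1, on a log axis against the distance from its annotated start, in ESCs and NPCs, above a map of exons and snoRNAs. *Snora61* rises above the rest of the locus in both libraries, and the 5′ ends of *Snora44*, *Snora61* and *Snord99* but only the 3′ part of *Snora16a* carry high depth.

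In *Snora61*, base 2 was the start of 86.9% of reads in ESCs (86.6 to 87.2%) and 82.0% in NPCs (81.3 to 82.8%). In *Snora44* base 2 was also the commonest start, at 71.5% (68.9 to 73.9%) and 61.9% (55.5 to 68.0%). In *Snord99* it was base 5, with 92.2% (89.6 to 94.3%) and 89.5% (86.7 to 91.9%). These 3 snoRNAs were therefore read mainly from their annotated 5′ ends.

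*Snora16a* was read from elsewhere. Its commonest start was base 90 in both libraries, with 245 of 388 ESC reads (63.1%, 58.1 to 68.0%) and 64 of 119 NPC reads (53.8%, 44.4 to 63.0%). Base 79 came next with 108 and 33 reads. Reads that start at base 90 end 1 base beyond the annotated 3′ end, so they cover the terminal ACA and leave out the first bases of the predicted 3′ hairpin. Only 5.67% of ESC reads (3.59 to 8.46%) and 15.1% of NPC reads (9.22 to 22.8%) began before the H box. Over the 99 H/ACA genes with at least 100 ESC reads, the median share of reads that began in the 5′ part up to the midpoint was 99.2%, and 2 genes had a smaller share than *Snora16a*. Among 73 such genes in NPCs none had a smaller share. The few *Snora16a* reads that began before the H box numbered 22 and 18, a log2 ratio of -0.33 (-1.32 to 0.63), against 366 and 101 from the H box on, a ratio of -1.90 (-2.23 to -1.58).

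**Figure D4:**
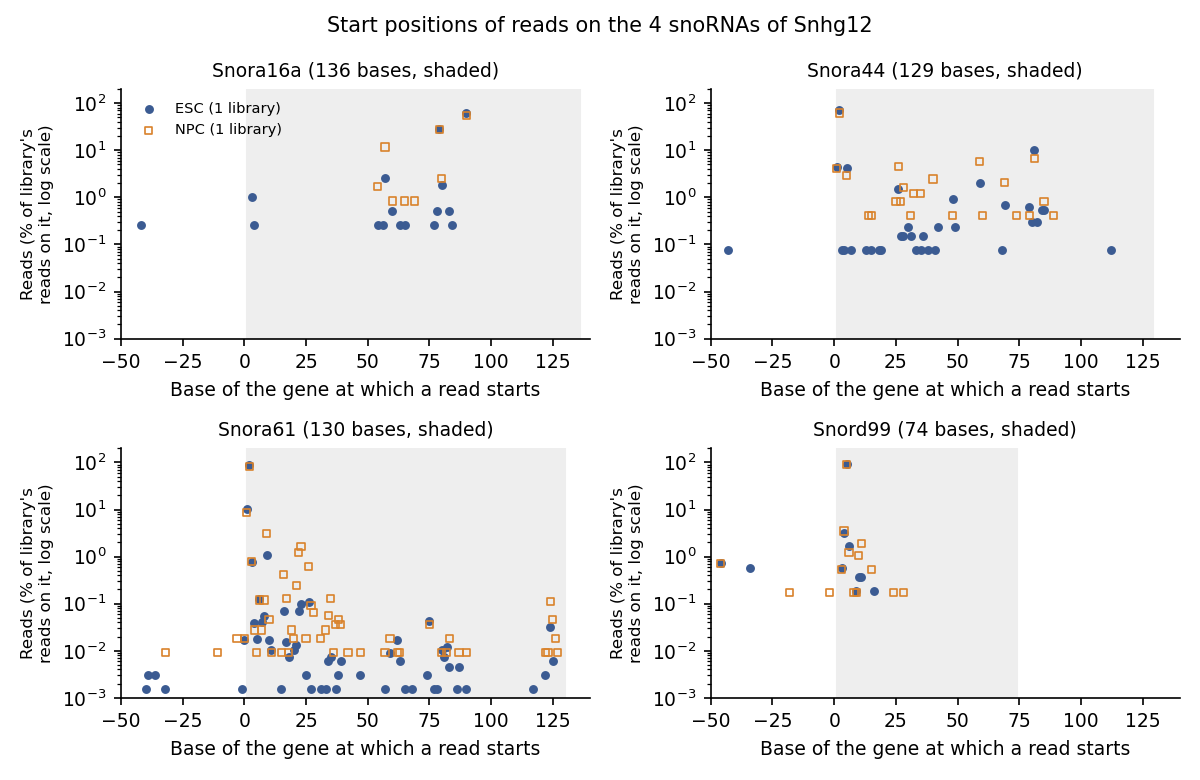
Percentage of each library's reads on a snoRNA (log axis) that start at each base of the gene, for ESCs (filled circles) and NPCs (open squares), with the annotated gene shaded. The commonest start is base 2 in *Snora61* and *Snora44*, base 5 in *Snord99* and base 90 in *Snora16a*.

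The lower level of *Snora61* in NPCs did not hold for every start position. The first 70 bases of the gene (mm9, chr4:131866155-131866224) are repeated here with capitals at bases 1 to 3 and 21 to 23, the start positions whose reads moved in opposite directions.
Snora61: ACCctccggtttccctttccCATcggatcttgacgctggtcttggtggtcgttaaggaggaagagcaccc
Starts at bases 1 to 3 took 65008 ESC and 9937 NPC reads, a log2 ratio of -2.75 (-2.78 to -2.72). Starts at bases 21 to 23 took 119 ESC and 334 NPC reads, a ratio of 1.45 (1.14 to 1.76), and all 3 of these positions were higher in NPCs. Base 21 had 9 and 26 reads, base 22 had 46 and 133, and base 23 had 64 and 175. These groups of bases were set after the starts had been seen.

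The other starts, taken as groups, had ratios between these. Bases 4 to 10 took 911 ESC and 374 NPC reads (-1.33, -1.50 to -1.15), most of them at base 9 with 716 and 336. Bases 11 to 20 had 77 and 67 reads (-0.24, -0.74 to 0.25), and from base 24 on there were 208 and 164 (-0.39, -0.69 to -0.08). The share of *Snora61* reads that began at bases 21 to 23 was 0.179% in ESCs (0.149 to 0.215%) and 3.07% in NPCs (2.75 to 3.41%). Such reads were thus a minor part of *Snora61* in both libraries. Starts at bases 1 to 3 made up 98.0% of its reads in ESCs and 91.3% in NPCs, so the ratio of the whole gene is mainly theirs by count.

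**Figure D5:**
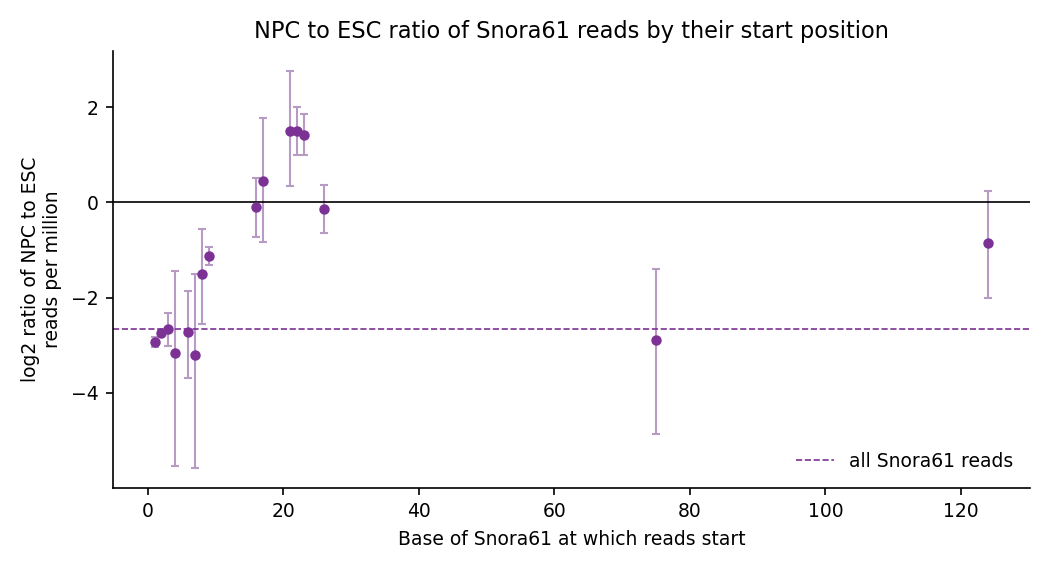
The log2 ratio of NPC to ESC RPM for *Snora61* reads by the base at which they start, for positions with at least 20 pooled reads and a read in each library, with 95% counting intervals. Bases 1, 2 and 3 lie at -2.93, -2.73 and -2.66 near the ratio of the whole gene (dashed line, -2.65), and bases 21, 22 and 23 lie at 1.49, 1.49 and 1.41.

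The commonest start had a smaller share in NPCs in each member, although the intervals of the shares overlapped in *Snora16a* and *Snord99*. The log2 ratio at the commonest start and at all other starts was -2.73 and -2.19 (-2.27 to -2.12) in *Snora61*, -2.67 and -2.05 (-2.39 to -1.72) in *Snora44*, -1.98 and -1.42 (-1.90 to -0.96) in *Snora16a*, and 0.00 and 0.47 (-0.12 to 1.08) in *Snord99*. Among snoRNAs with at least 100 reads in each library, the commonest start had a smaller share in NPCs for 49 of 73 H/ACA genes (67.1%) and 62 of 93 C/D genes (66.7%), so the members did as most snoRNAs did.

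Some reads crossed the edge of a snoRNA and so held flanking sequence. Reads that began before *Snora61* numbered 18 in ESCs and 6 in NPCs, a log2 ratio of -1.63 (-3.25 to -0.23), and those that ran past its 3′ end numbered 33 and 24 (-0.50, -1.32 to 0.30). At *Snord99* 7 and 6 reads began before the gene, and 0 and 1 ran past its end. At *Snora44* 1 and 0 reads began before it and 15 and 3 ran past it. At *Snora16a* 1 and 0 reads began before it, and the 245 and 64 reads from base 90 ran 1 base past its end. Edge reads were thus few at *Snora61*, *Snora44* and *Snord99*, and most of the reads at *Snora16a*.

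*Snhg12* exon reads outside the snoRNAs numbered 87 in ESCs (69.7 to 107) and 124 in NPCs (103 to 148), or 20.4 and 28.2 RPM over 1293 exonic bases. Their log2 ratio was 0.47 (0.06 to 0.88), and 0.12 relative to the median gene. The interval reached 0 when each start position was counted once (0.20, -0.50 to 0.92) and when the libraries were scaled by the median ratio of all genes (0.13, -0.28 to 0.54). The ratio of *Snora61* was below that of the host exons by a difference of -3.12 (-3.52 to -2.72), that of *Snora44* by -2.94 (-3.38 to -2.49) and that of *Snora16a* by -2.22 (-2.71 to -1.72). *Snord99* and the host exons differed by -0.43, with an interval of -0.86 to 0.01. For each host exon read there were 763 *Snora61* reads in ESCs and 87.8 in NPCs. By reads, the H/ACA members thus departed from the exon reads of their own host, while *Snord99* could not be set apart from them at this depth. With each start position counted once, the interval of the host exons overlapped that of each H/ACA member. These exon reads are of NPA RNA, so they are not the level of the host RNA as a whole.

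A count over all annotated exons would not show the host RNA, since the exons of 1 transcript contain snoRNAs. That count was 68275 reads in ESCs and 11820 in NPCs, of which 99.9% and 99.0% lay on snoRNAs, and its log2 ratio was -2.57 (-2.60 to -2.54). The sign of the *Snhg12* ratio thus depended on whether snoRNA reads were taken out.

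Host exon reads came mainly from exon 1, where 61 ESC and 99 NPC reads had their middle base (0.66, 0.18 to 1.14). The last exon of the gene had 0 and 1. A single position, base 189 of the host, was the start of 36 of 87 reads in ESCs (41.4%) and of 51 of 124 in NPCs (41.1%). These reads cover chr4:131864781-131864828 and run 6 bases past the annotated end of exon 1 at base 230. The sequence is shown because it crosses into the intron, whose letters are in capitals.
Snhg12 exon 1 end: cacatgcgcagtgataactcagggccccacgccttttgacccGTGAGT
All 36 and all 51 reads were identical to this genomic sequence, and GT are the first bases of the intron, as at most donor splice sites. In all, 47 ESC reads and 55 NPC reads crossed the end of exon 1 without a mismatch, or 54.0% and 44.4% of the host exon reads. Much of what was counted on host exons was thus continuous with the intron at this edge. Each deposited read has 1 unbroken place on the genome, so reads spliced across a junction are largely missing. These shares therefore do not measure how much of the host RNA was unspliced. Without base 189 the ratio was 0.47 (-0.06 to 1.02) from 51 and 73 reads. When only reads that lay on exon bases shared by all transcripts that span them were kept, which leaves out reads that cross into an intron, 17 ESC and 49 NPC reads remained and the ratio was 1.48 (0.66 to 2.37). Both alternatives were chosen after the data had been seen.

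Introns outside the snoRNAs had 35 reads in ESCs and 17 in NPCs, a log2 ratio of -1.08 (-2.01 to -0.21). The exon and intron ratios differed by 1.55 (0.63 to 2.48). All of these lay between exon 1 and *Snora16a*, in the only intronic stretch longer than a read. Intron and exon reads of the host thus lay on opposite sides of 0.

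The reads were specific to the strand of *Snhg12*. On the opposite strand there was 1 read over the host in ESCs and 0 in NPCs, and none over any of the 4 snoRNAs, which allows up to 0.702 RPM in ESCs and 0.682 RPM in NPCs. None of the read sequences on the host occurred more than once in mm9. Places elsewhere in the genome that align over at least 80% of a member's length numbered 7 for *Snora61* (up to 90.8% identity), 6 for *Snora44* (up to 93.0%), 1 for *Snora16a* (75.4%) and 0 for *Snord99*, and 0 reads lay there in either library. The authors did not require a unique place, and each of the 97.7% of ESC reads and 97.6% of NPC reads on the host that were identical to mm9 had 1 place.

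The nearest annotated genes are on the opposite strand. *Trnau1ap*, which encodes a protein associated with the selenocysteine tRNA, lies 739 bases after the host and had 9 reads in ESCs and 24 in NPCs (1.37, 0.22 to 2.66). *Rab42-ps* lies 5293 bases before it and had 5 and 0 reads. *Trnau1ap* thus had a ratio above 0, but on few reads, and its interval includes the median ratio of all genes (0.35). *Rab42-ps* had too few reads for a ratio.

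The exons of other noncoding snoRNA hosts gave 6 genes with at least 10 reads out of 10 listed, none past 2-fold in either direction, with a median log2 ratio of -0.22. The exons of *Snhg5* were at 0.48 (0.04 to 0.92), close to the 0.47 of *Snhg12*, and those of *Gas5* at -0.24 (-0.53 to 0.06). The median ratio of the snoRNAs was below that of the exons in each of the 7 hosts where both could be had. That difference was -2.58 in *Snhg12*, -2.01 in *Snhg7*, -1.94 in *Snhg11*, -1.11 in *Snhg3*, -1.09 in *Gas5*, -0.71 in *Snhg1* and -0.39 in *Snhg5*. *Snhg12*, which was chosen by the reads at *Snora61*, had the largest difference of these 7, so its rank carries no weight of its own. It held 3 H/ACA snoRNAs and 1 C/D snoRNA. *Snhg7*, *Snhg11* and *Snhg3* held only H/ACA snoRNAs, and *Gas5*, *Snhg1* and *Snhg5* only C/D snoRNAs. The order was not tested.

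Proteins of the H/ACA particle did not move together. Of 6 genes, *Nop10* alone was more than 2-fold lower, with 195 and 85 reads (-1.24, -1.63 to -0.87), and none was more than 2-fold higher. *Dkc1*, which encodes the pseudouridine synthase dyskerin, had 570 and 307 reads (-0.94, -1.14 to -0.73), while the assembly factor *Naf1* had 98 and 199 (0.98, 0.62 to 1.34) and *Gar1* had 70 and 136 (0.92, 0.49 to 1.35). Of 4 genes of the C/D particle, *Nop58* alone was past 2-fold, at 341 and 737 reads (1.07, 0.88 to 1.26), and *Fbl*, which encodes the methyltransferase fibrillarin, had 304 and 424 (0.44, 0.22 to 0.65). These counts keep reads on snoRNAs that overlap annotated exons. *Nop56* of the C/D particle had 3891 and 3134 reads in this count (-0.35, -0.42 to -0.29). Outside its snoRNAs it had 667 and 832 (0.28, 0.13 to 0.43), a ratio of the other sign. No count without snoRNA reads is given for the other particle genes. The values are reads of NPA RNA, in which most messenger RNA was removed, so they are not levels of the messenger RNAs as a whole.

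Among 494 other genes with at least 1000 ESC reads, the 5 whose ratio was nearest to the -2.65 of *Snora61* were *Hist1h2bm* (-2.63), a pair of genes named SNORA32 on chromosomes 13 (-2.70) and 12 (-2.71), *Rpl12* (-2.72) and *Mif* (-2.58). *Hist1h2bm* encodes a replication-dependent histone, whose messenger RNA has no poly(A) tail. Of the *Rpl12* reads, 746 of 36691 in ESCs and 573 of 5756 in NPCs lay outside its snoRNA. Its ratio is thus mainly that of the snoRNA within it, which alone was at -2.84. *Hist1h2bm* belongs to a multigene family and SNORA32 names several genes, so reads may be split among copies and their values are uncertain. Likeness here is the distance between log2 ratios over 1 pair of libraries.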

How the data were processed

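NPA RNA was obtained by the authors by removing polyadenylated RNA with oligo(dT) beads and ribosomal RNA with RiboMinus. It was fragmented with RNase III, size selected, amplified by PCR and sequenced on a SOLiD 3 instrument. Reads were aligned to mm9 with Bowtie (version not given in the sources used here) without requiring a unique place, and mitochondrial, ribosomal and repeat reads were removed. The deposited files hold other values than counts, namely 1 line per placed read with its position, strand and sequence, so read counts were made here from them. Reads were assigned by strand and overlap of at least 1 base to GENCODE M1 genes and scaled by the library total (RPM; RPKM also by length). Size selection and repeat filtering may change levels between features of unequal length.

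Counts have exact Poisson intervals, shares Clopper-Pearson intervals, ratios conditional binomial intervals, and differences between ratios normal intervals on log counts, all at 95%. A count of 0 was taken as up to 3 reads. Counting was tested on simulated data. Members, lists and comparisons were chosen with earlier results of these data known. Named genes are the members, the 5 nearest in ratio to *Snora61*, listed hosts, particle proteins and markers, and the neighbours of the host. *Snhg6*, *Snhg8*, *Snhg10* and *Sox1* were not annotated by these names, and *Snhg9* had 0 exon reads in both libraries. Tools were Python 3.11.15, NumPy 2.4.6, SciPy 1.17.1, SAMtools 1.23.1, BLAST+ 2.17.0 and ViennaRNA 2.7.2.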

Additional observations from a re-analysis of the deposited data

How the results depend on the processing

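*Snora16a*, *Snora44* and *Snora61* had ratios below 0 under every alternative tried, with an interval that included 0 for *Snora16a* and *Snora61* when starts were counted once. Counting each start position once lowered the size most, to -1.27 for *Snora16a*, -0.90 for *Snora44* and -0.35 for *Snora61* (-0.91 to 0.21), and set the share of *Snora61* at 48.7% in ESCs and 55.1% in NPCs. A gene of this length has a limited number of positions to start from (57 and 54 were used in *Snora61*), so that count is bounded. PCR copies and separate RNA molecules that start at the same base cannot be told apart here. Scaling by the median ratio of all genes gave -2.09, -2.81 and -2.99 for these genes and -0.30 for *Snord99*, and leaving the 10 genes with the most reads out of the totals gave -2.73 for *Snora61*. Keeping only reads wholly inside a feature dropped the *Snora16a* reads from base 90 and gave -1.41 for that gene, and *Snora61* shares of 97.1% and 92.7%. The ESC share was 97.0% with reads found once in mm9, and 96.6% of all reads on the strand of the host, where the NPC share was 91.0%. Host exon ratios were above 0 under each alternative, but the interval reached 0 with starts counted once, with reads found once in mm9, without the commonest start and under both other scalings. The ratio was 1.48 on exon bases shared by all transcripts that span them, an alternative added after seeing the data. Genes more than 2-fold lower numbered 1969, and 1726 to 2843 under the alternatives. No paired analysis was possible because each cell type had 1 library, and for the same reason none could be left out. Depth limits the host values, which rest on 87 and 124 exon reads.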

Other observations

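*Snhg12* was 1 of 10 host genes that held snoRNAs of both classes with at least 50 pooled reads each and reads in both libraries, a comparison chosen after seeing the data. In 7 of the 9 other hosts, each H/ACA snoRNA had a lower log2 ratio of NPC to ESC than each C/D snoRNA. The median ratio of the H/ACA members minus that of the C/D members was -2.51 in *Snhg12*, and had a median of -1.34 over the other hosts. *Rpl21* (-2.98) and *Rpl5* (-2.57) lay below *Snhg12*, and *Eef1b2* stood at -2.02. *Snx5* (1.66) and *Rps12* (1.16), with 1 H/ACA snoRNA each, lay on the other side of 0. The exon ratios of the other hosts ran from -1.27 (-1.35 to -1.18) in *Eif4a2*, whose H/ACA snoRNAs had a median of -1.81, through -0.69 (-1.11 to -0.27) in *Rps12*, -0.03 (-0.12 to 0.06) in *Eef1b2* and 0.05 (-0.07 to 0.16) in *Rpl5*, to 1.32 (1.15 to 1.49) in *Ncl*.

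Of the reads on the strand of *Snhg12*, 97.7% in ESCs and 97.6% in NPCs were identical to mm9. In exon 1 a base differed in most reads of both libraries, T114A, counted from 1 at the first base of *Snhg12* with the mm9 base first. It was present in 9 of 10 ESC reads and 24 of 25 NPC reads, from 6 and 9 start positions. T924C, 1 base after *Snora16a*, was in 22 of 245 ESC reads and 9 of 64 NPC reads, all from 1 start. A1311T, in *Snora44*, was in 99 of 1107 and 12 of 203, from 2 starts and 1.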
